A study of Mus musculus with 12 samples.

Results

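The phosphoinositide 3-kinase (PI3K) genes described here encode catalytic and regulatory subunits of the class I enzymes, an inhibitor protein of these enzymes, and lipid phosphatases that act on their products. They are 9 genes taken by symbol from the 13283 genes measured, and all 9 were found. The catalytic subunits are Pik3cd (p110δ), Pik3ca (p110α), Pik3cb (p110β) and Pik3cg (p110γ), and the regulatory subunits are Pik3r1 (p85α) and Pik3r5 (p101). Pik3ip1 encodes PI3K interacting protein 1, Inpp5d the 5-phosphatase SHIP1 and Inpp4b the 4-phosphatase INPP4B.

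RNA sequencing measured cytotoxic T lymphocytes (CTL), effector CD8+ T cells, of female mice aged 11 to 27 weeks. T cells of lymph nodes or spleens were activated for 48 h with anti-CD3 and anti-CD28 and expanded with IL-2 at 20 ng/mL together with IL-12 at 2 ng/mL. WT CTL came from GzmB cre+ mice, so the controls also carried the Cre recombinase driven by the granzyme B promoter. FOXO1-GFP KO CTL came from FOXO1-GFPfl/fl Gzmb cre+ mice, in which that Cre removes a floxed exon that holds the GFP tag, and they were sorted as GFP- cells. WT CTL were sorted on CD8 alone. From day 6 each genotype was cultured for 24 h with DMSO or with 10 µM IC87114, a p110δ inhibitor (PI3Kdi). The 4 groups (WT, WT+PI3Kdi, FOXO1-GFP KO and FOXO1-GFP KO+PI3Kdi) held 3 libraries each, 12 in all, of 12.8 to 47.9 M estimated reads. The labels number them as biological replicates without naming cultures or mice, so p-values measure the spread between these libraries.

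Class I PI3K phosphorylates a membrane lipid to form PIP3, which recruits proteins with a pleckstrin homology domain, among them the kinases PDK1 and AKT. AKT phosphorylates FOXO1 and so keeps it out of the nucleus. The p85 subunits hold and stabilise p110α, p110β and p110δ, whereas p110γ pairs with p101 or with p84 and responds to G protein-coupled receptors. PI3KIP1 is a membrane protein that restrains p110 activity. SHIP1 converts PIP3 to PtdIns(3,4)P2, and INPP4B removes the 4-phosphate from that lipid. In T cells p110δ is the class I isoform on which antigen receptor signalling chiefly depends.

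The libraries were checked first. Foxo1, the deleted gene, was at 5.77 to 10.46 FPKM (fragments scaled to exon length and to library size) in the 6 WT libraries and at 0.58 to 1.75 FPKM in the 6 from FOXO1-GFP KO CTL, with log2 fold changes of -2.71 without PI3Kdi (limma, adjusted p = 0.0148) and -2.76 with it (0.00478). Genes of CD8 T cells summed to 8697 to 12660 FPKM per library. Most of that was the granzyme B gene Gzmb (7317 to 10955 FPKM), with Cd8a at 139 to 253 FPKM. Of 12 B cell markers 3 were measured (Cd79b, Ighm and Igkc) and 9, defining ones among them, were not analysed here. The 3 summed to 11.4 to 15.6 FPKM in WT, 15.3 to 19.5 in WT+PI3Kdi, 4.48 to 6.88 in FOXO1-GFP KO and 4.31 to 6.36 in FOXO1-GFP KO+PI3Kdi, where Igkc was listed at 0 in all 3 libraries. Of 12 myeloid markers 5 were measured, and their sums were 2.93 to 3.8 FPKM for WT CTL and 3.61 to 5.34 after PI3Kdi, against 2.98 to 3.66 and 1.89 to 3.81 FPKM for FOXO1-GFP KO CTL. Fcgr3, a myeloid Fc receptor among them, averaged 1.81, 2.45, 0.983 and 0.833 FPKM in the same order. Of 4 CD4 T cell markers 3 were measured, with sums of 4.96 to 8.24 FPKM that were mostly Zbtb7b. Cd4 itself averaged 0.520, 0.893, 0.247 and 0.350 FPKM in that order. On the first principal component, which held 47.7% of the variance, both WT libraries of replicate number 1 stood apart at one end (-37.5 and -31.7, the next library at -14.2) and both FOXO1-GFP KO libraries of number 3 lay at the other (25.8 and 36.6). Results are therefore also given without libraries whose removal changes a call. In RNA of bulk cells, fewer cells of a type and less RNA per cell cannot be told apart.

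A gene was called where limma, fitted to log2(FPKM + 0.1) of every gene measured, gave a Benjamini-Hochberg p under 0.05 together with a fold change above 1.5 in either direction. On that scale the changes of low genes are understated. Since vehicle and PI3Kdi libraries of the same replicate number varied together within a genotype, a second fit with that number as a replicate block is quoted where it alters a call.

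Pik3cd dominated the class I catalytic subunits in every library. Its gene model is on chromosome 4 from 149649168 to 149702571 of GRCm38, the build of all positions below (minus strand). Replicates 1 to 3 of WT CTL held 175.50, 142.24 and 142.36 FPKM of Pik3cd, and those given PI3Kdi 189.67, 176.84 and 196.62 FPKM. Replicates 1 to 3 of FOXO1-GFP KO CTL held 140.81, 127.86 and 122.68 FPKM, and those given PI3Kdi 147.37, 140.95 and 136.75 FPKM. All 3 WT+PI3Kdi libraries lay above all 3 WT libraries, and all 6 WT libraries lay above the FOXO1-GFP KO libraries given the same treatment. Without PI3Kdi this separation was narrow, at 140.81 against 142.24 FPKM, and the 2 FOXO1-GFP KO groups overlapped. Averaged over the 12 libraries Pik3cd was at the 97.8th percentile of all genes measured, with 9877 to 42747 reads per library.

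The other catalytic subunits were far less abundant per length. Pik3cg (chromosome 12, 32173473 to 32208659, minus strand) ranged from 14.77 to 29.29 FPKM over the 12 libraries, Pik3ca (chromosome 3, 32397671 to 32468486, plus strand) from 5.50 to 8.67 FPKM and Pik3cb (chromosome 9, 99036654 to 99140621, minus strand) from 0.78 to 1.29 FPKM. Of the summed FPKM of the 4 genes, Pik3cd made up 84.5% ± 1.79 (SD, n = 3) in WT CTL and 86.8% ± 3.34 with PI3Kdi. The corresponding shares in FOXO1-GFP KO CTL were 83.3% ± 1.91 and 85.7% ± 1.03. The group ranges overlapped, but within pairs of the same number the share was higher with PI3Kdi in 6 of 6 pairs. Pik3cg took 11.2% ± 1.38 of the sum in WT and Pik3ca 3.65% ± 0.387, while Pik3cb stayed at 0.353 to 0.771% in every library. Pik3cb was also the least precisely counted member, with 86 to 314 reads per library, which at the lowest count is a counting error of 10.8%.

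**Figure D1:**
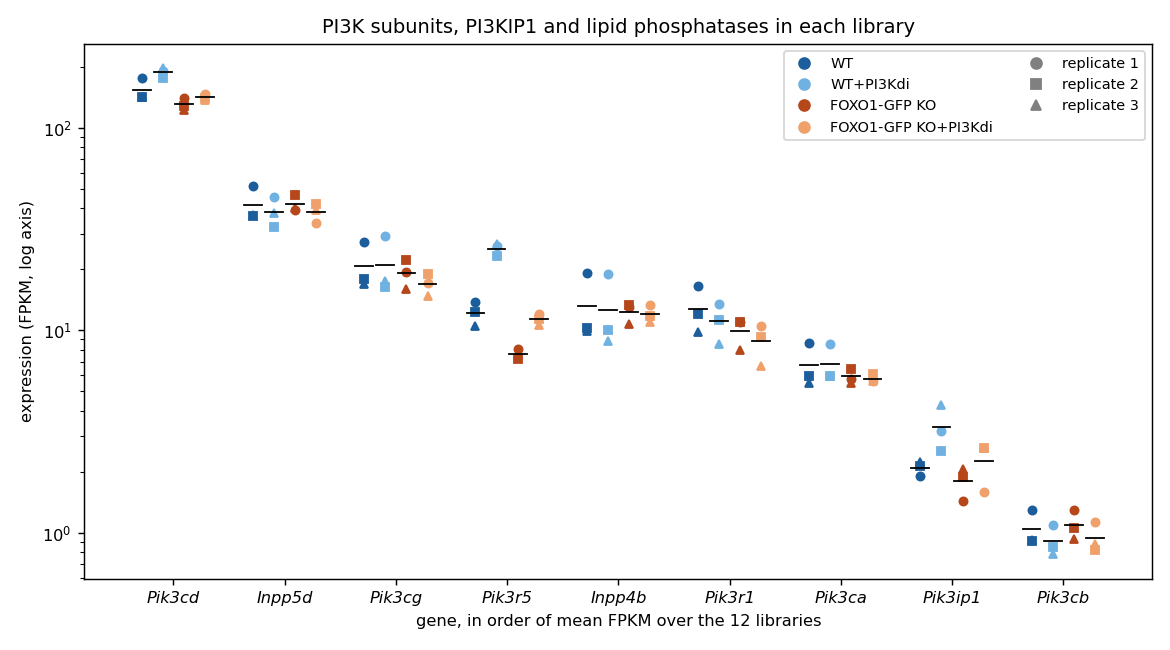
Expression of the 9 genes in each of the 12 libraries. The vertical axis is FPKM on a log scale, genes are ordered by their mean over all libraries, colours give the group, marker shapes the replicate number and black lines the group means. Pik3cd lies between 122.68 and 196.62 FPKM in every library, Pik3cb between 0.78 and 1.29 FPKM, and Pik3r5 is the gene whose 4 groups are most widely spread, from 7.21 to 26.51 FPKM.

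The order of levels was the same in all groups at its top and bottom. Pik3cd was above Inpp5d, and Inpp5d above Pik3cg, in 12 of 12 libraries with no overlap of their ranges. Pik3ca was above Pik3ip1, and Pik3ip1 above Pik3cb, also in 12 of 12 libraries with no overlap. Between these, Pik3r1 was above Pik3ca in 12 of 12 libraries, with ranges apart in 3 of the 4 groups. Inpp4b and Pik3r1 overlapped in 3 of the 4 groups, and Pik3r5 changed place between groups. Pik3r5 was below Pik3cg in all 9 libraries of WT, FOXO1-GFP KO and FOXO1-GFP KO+PI3Kdi, with ranges apart in each of these groups, but above it in 2 of the 3 WT+PI3Kdi libraries. It was above Inpp4b in all 3 WT+PI3Kdi libraries and below it in all 6 FOXO1-GFP KO libraries.

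Pik3r5 was the member with the clearest response. It occupies chromosome 11 from 68432121 to 68497849 on the plus strand, and encodes p101, which binds p110γ and conveys signals from the βγ subunits of G proteins. Its window around the RefSeq start site is shown with those of Pik3ip1, the only other member called in any fit, and of Pik3cg, whose product p101 binds. Each is 300 bases of RefSeq sequence (GRCm38.p6), 250 before and 50 from the start site onward, at chr11:68431875-68432174 (plus strand), chr11:3330481-3330780 (plus strand) and chr12:32208421-32208720 (minus strand), written in the direction of transcription. Capitals mark GTAAACA, the core letters bound by FOXO factors. 
Pik3r5: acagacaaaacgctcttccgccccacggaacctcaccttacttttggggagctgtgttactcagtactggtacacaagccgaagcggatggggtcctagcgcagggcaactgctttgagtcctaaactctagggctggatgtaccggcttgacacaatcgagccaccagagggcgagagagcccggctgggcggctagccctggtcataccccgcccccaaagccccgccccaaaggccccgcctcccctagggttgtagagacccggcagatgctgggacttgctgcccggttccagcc
Pik3ip1: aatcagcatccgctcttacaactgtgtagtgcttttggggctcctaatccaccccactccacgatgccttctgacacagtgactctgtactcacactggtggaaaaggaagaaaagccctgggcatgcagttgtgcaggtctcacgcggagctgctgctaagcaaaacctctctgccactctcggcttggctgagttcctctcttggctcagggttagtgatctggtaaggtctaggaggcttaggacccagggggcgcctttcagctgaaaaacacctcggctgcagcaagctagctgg
Pik3cg: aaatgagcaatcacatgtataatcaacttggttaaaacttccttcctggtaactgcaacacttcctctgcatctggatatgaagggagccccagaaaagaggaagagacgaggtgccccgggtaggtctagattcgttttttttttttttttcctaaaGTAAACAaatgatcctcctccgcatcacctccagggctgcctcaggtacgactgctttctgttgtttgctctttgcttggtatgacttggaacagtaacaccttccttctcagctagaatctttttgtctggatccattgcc
GTAAACA and a second forkhead variant, CAAAACA, were searched on both strands, so also as TGTTTAC and TGTTTTG. The 9 genes had 13 such windows, of which 1 held GTAAACA and 0 held CAAAACA. The match is in the printed Pik3cg window, 92 bases before that start site, and not in the window of the other Pik3cg start site (chr12:32208610-32208909). Among all 32851 RefSeq windows, 3.65% held GTAAACA and 6.28% CAAAACA. In the 12228 windows of genes measured here these shares were 2.53% and 4.41%. A match is only a match of letters in this window, and its absence says nothing of sites elsewhere.

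In WT CTL Pik3r5 mRNA approximately doubled with PI3Kdi. The vehicle libraries of WT CTL, in replicate order, were at 13.71, 12.26 and 10.43 FPKM. Those with PI3Kdi were at 26.05, 23.21 and 26.51 FPKM. The groups did not overlap, and the lowest WT+PI3Kdi library was well above the highest WT library. The mean went from 12.1 ± 1.64 to 25.3 ± 1.79 FPKM (SD, n = 3), a rise of 1.06 on the log2 scale or 2.08-fold (95% confidence interval 0.81 to 1.31, adjusted p = 0.00671). Leaving out WT replicate 2, WT+PI3Kdi replicate 1 or WT+PI3Kdi replicate 3 moved the adjusted p to 0.0505, 0.0603 and 0.0573, with log2 fold changes of 1.07, 1.03 and 1.02. The rise was still called without both WT libraries of number 1 (1.13, adjusted p = 0.0242). Some markers of other cells were also higher in WT CTL given PI3Kdi, and others were not. The B cell marker sum went from 11.4 to 15.6 FPKM in vehicle libraries to 15.3 to 19.5 FPKM, and Cd4 from 0.44 to 0.57 FPKM to 0.83 to 0.95 FPKM without overlap. Among the B cell markers, Ighm, most of that sum, went from 7.61 to 10.33 FPKM to 11.05 to 12.98 FPKM without overlap. Its log2 fold change of 0.51 was under the limit of a call, and Cd79b differed by only 0.02 on the log2 scale. The other measured CD4 T cell markers, Zbtb7b (-0.09) and Cd40lg (-0.05), were not higher. With the replicate block limma called Cd4 (log2 fold change of 0.68, adjusted p = 0.0413) and the B cell marker Igkc (1.35, adjusted p = 0.0294), and without it neither. Their part in the results for PI3Kdi in WT CTL was not tested.

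In FOXO1-GFP KO CTL the same comparison gave a smaller difference. The vehicle libraries held 8.03, 7.21 and 7.58 FPKM of Pik3r5 and the PI3Kdi libraries 12.02, 11.39 and 10.64 FPKM, again with no overlap and higher in 3 of 3 pairs. The log2 fold change was 0.57 (0.32 to 0.82, adjusted p = 0.252), or 1.49-fold, and was not called. With the replicate block the adjusted p was 0.00137, but the fold change still fell short of 1.5. The responses of the 2 genotypes differed by -0.49 on the log2 scale (95% confidence interval -0.84 to -0.13, unadjusted p = 0.0111 in limma). That difference did not pass adjustment over all genes (adjusted p = 1, and 0.104 with the replicate block).

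**Figure D2:**
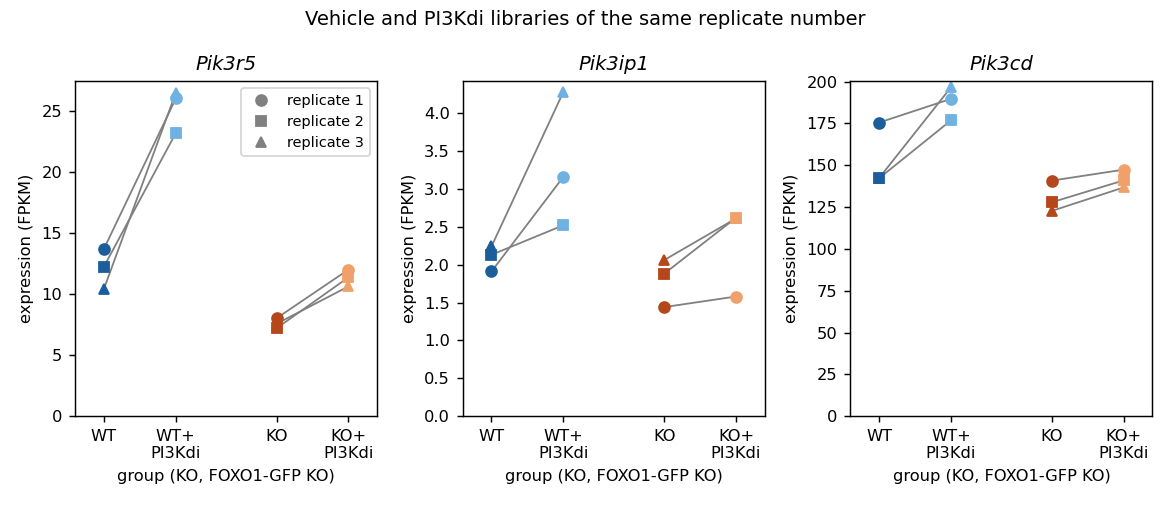
Expression of Pik3r5, Pik3ip1 and Pik3cd in FPKM (vertical axes from 0) in the 4 groups. Points are libraries, shapes give the replicate number, and grey lines join the vehicle and PI3Kdi libraries of the same number within a genotype. In every joined pair the PI3Kdi library is the higher, and for Pik3r5 the WT+PI3Kdi libraries (23.21 to 26.51 FPKM) lie above all others.

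Between genotypes, when both were given PI3Kdi, FOXO1-GFP KO CTL held less Pik3r5 mRNA than WT CTL. The means were 11.4 ± 0.691 and 25.3 ± 1.79 FPKM (SD, n = 3). The log2 fold change was -1.15 (-1.40 to -0.90, adjusted p = 0.000831), or 2.21-fold, and the highest FOXO1-GFP KO+PI3Kdi library was at 12.02 FPKM. This call was made under all 24 alternatives tried. This comparison and that of PI3Kdi in WT share the WT+PI3Kdi libraries, so they are not independent of each other. B cell markers were also lower in the FOXO1-GFP KO libraries (4.31 to 6.36 against 15.3 to 19.5 FPKM in sum, with PI3Kdi). Fcgr3 (0.29 to 1.34 against 1.89 to 3.10 FPKM) and Cd4 (0.12 to 0.51 against 0.83 to 0.95 FPKM) were lower too. Of the 5 measured myeloid markers 4 were lower and 1, Tyrobp, was higher (0.43 on the log2 scale). The myeloid sums overlapped (1.89 to 3.81 against 3.61 to 5.34 FPKM). The part of these markers in the Pik3r5 result was not tested. In limma Fcgr3 (log2 fold change of -1.62, adjusted p = 0.0688) and Cd4 (-1.27, adjusted p = 0.215) were not called. The B cell markers Ighm (-2.38, adjusted p = 0.000831) and Igkc (-4.43, adjusted p = 0.00249) were called, and Cd79b was not (-0.28, adjusted p = 0.734).

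Without PI3Kdi the genotype difference of Pik3r5 was smaller and depended on the fit. All 3 FOXO1-GFP KO libraries (7.21 to 8.03 FPKM) lay below all 3 WT libraries (10.43 to 13.71 FPKM), with a log2 fold change of -0.66 (-0.91 to -0.41, adjusted p = 0.0383). With the replicate block it was no longer called (adjusted p = 0.165). It was also lost when any 1 library but WT replicate 3 was left out, with adjusted p of 0.051 to 0.172 and log2 fold changes of -0.70 to -0.57, and without both WT libraries of number 1 (-0.57, adjusted p = 0.126). B cell markers summed to 4.48 to 6.88 FPKM in these FOXO1-GFP KO libraries and to 11.4 to 15.6 FPKM in WT. In limma the B cell marker Ighm was called lower (log2 fold change of -1.60, adjusted p = 0.0153). Fcgr3 was at 0.90 to 1.11 against 1.55 to 2.01 FPKM and Cd4 at 0.09 to 0.44 against 0.44 to 0.57 FPKM. By log2 fold change, however, 3 of the 5 measured myeloid markers were higher in FOXO1-GFP KO and 2 were lower. The myeloid sums overlapped (2.98 to 3.66 against 2.93 to 3.8 FPKM). The part of these markers was not tested.

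The level of Pik3r5 relative to that of Pik3cg, its catalytic partner, followed the same groups. In WT CTL the ratio of their FPKM was 0.504, 0.685 and 0.617 for replicates 1 to 3, against 0.889, 1.42 and 1.52 after PI3Kdi. In FOXO1-GFP KO CTL the ratio was 0.413, 0.323 and 0.476, against 0.699, 0.603 and 0.720 after PI3Kdi. The WT+PI3Kdi ratios were the highest and the FOXO1-GFP KO ratios the lowest, with no overlap between either of these groups and any of the rest, while WT and FOXO1-GFP KO+PI3Kdi overlapped. Pik3cg itself held 27.22, 17.89 and 16.90 FPKM in the vehicle libraries of WT CTL and 29.29, 16.37 and 17.46 FPKM in those with PI3Kdi, a log2 fold change of 0.01 (-0.51 to 0.53). Its FOXO1-GFP KO libraries ranged from 15.94 to 22.32 FPKM, or 14.77 to 18.89 FPKM after PI3Kdi. It was not called in any comparison.

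**Figure D3:**
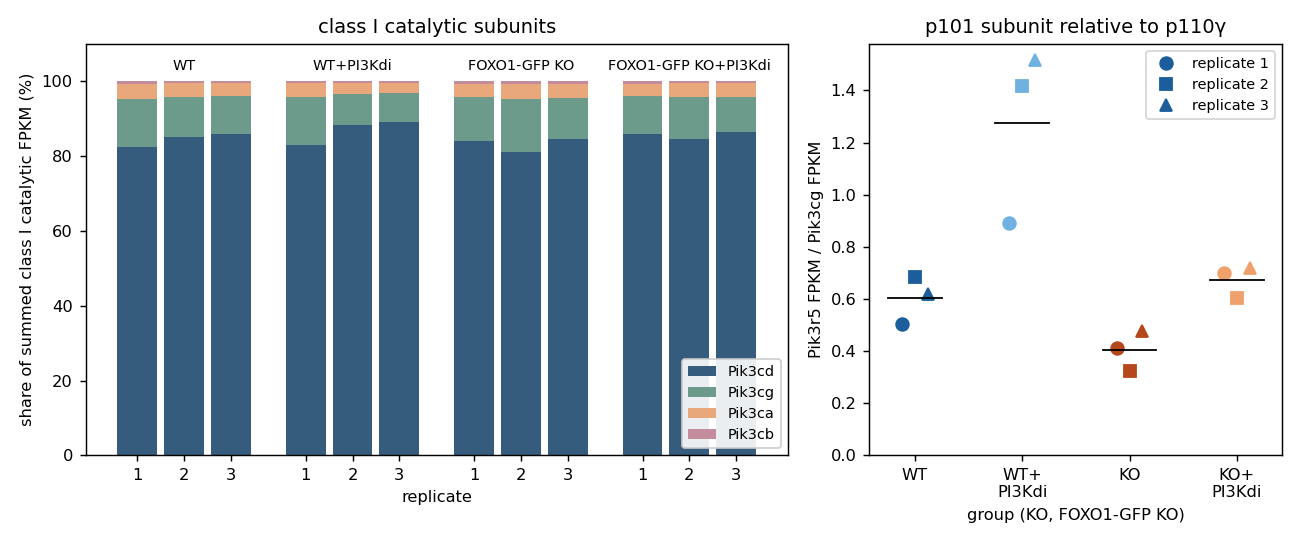
Left, the share of each class I catalytic gene in their summed FPKM, as stacked bars for each library by group and replicate. Right, the ratio of Pik3r5 to Pik3cg FPKM, with points for libraries, shapes for the replicate number and black lines for group means. Pik3cd holds 81.1 to 89.1% of the sum in every library, and the ratio is 0.889 to 1.52 in WT+PI3Kdi and 0.323 to 0.476 in FOXO1-GFP KO.

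The gene for the alternative p110γ partner, p84, lies 5169 bp beyond the end of Pik3r5 on the same strand, and was added after the values were seen. This gene, Pik3r6, ranged over 1.19 to 1.62 FPKM in the vehicle libraries of WT CTL and 0.97 to 2.08 FPKM with PI3Kdi, and these overlapped. Its FOXO1-GFP KO libraries ranged over 0.67 to 1.14 FPKM, all below the 1.24 to 1.45 FPKM seen with PI3Kdi. Pik3r6 was not called, with a log2 fold change after PI3Kdi of 0.05 in WT and 0.51 in the knockout (adjusted p = 0.933, or 0.0423 with the replicate block at a fold change of 1.43). The FPKM of Pik3r5 was 6.32 to 26.9 times that of Pik3r6.

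Pik3ip1, the inhibitor of p110, was also higher with PI3Kdi in every pair of libraries, but its call depended on the fit. It occupies chromosome 11 from 3330401 to 3342971 on the plus strand. WT CTL held 1.91, 2.13 and 2.24 FPKM of it in replicate order, and 3.16, 2.52 and 4.28 FPKM when given PI3Kdi. The 2 groups did not overlap, although the WT+PI3Kdi libraries were spread widely, with a mean of 3.32 ± 0.891 against 2.09 ± 0.168 FPKM (SD, n = 3). The log2 fold change of 0.61 (0.09 to 1.13) was not called without a block (adjusted p = 0.753) and was called with the replicate block (0.33 to 0.89, adjusted p = 0.0152). With the block and without both WT libraries of number 1, it was 0.57 and not called (adjusted p = 0.132).

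FOXO1-GFP KO CTL held 1.44, 1.88 and 2.06 FPKM of Pik3ip1, and 1.58, 2.62 and 2.61 FPKM when given PI3Kdi. The PI3Kdi library was higher in 3 of 3 pairs, but the groups overlapped and the log2 fold change of 0.30 was not called in either fit. The genotype differences of -0.22 without and -0.53 with PI3Kdi were not called either, nor was the difference of responses (-0.31, adjusted p = 1). Pik3ip1 had 113 to 437 reads per library, a counting error of up to 9.41%. An antisense gene model, Gm12592, overlaps Pik3ip1. Whether the counting kept strands apart is not given in the sources used here, so the effect of this overlap on the Pik3ip1 counts is not known.

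Pik3r1 encodes p85α, the regulatory partner shared by the class IA catalytic subunits. It lies on chromosome 13 from 101680563 to 101768217 (minus strand). WT CTL expressed it at 16.47, 11.97 and 9.76 FPKM, and at 13.44, 11.18 and 8.51 FPKM after PI3Kdi. FOXO1-GFP KO CTL expressed it at 10.92, 10.95 and 7.95 FPKM, and at 10.49, 9.25 and 6.69 FPKM after PI3Kdi. Every PI3Kdi library was below its vehicle library of the same number, in 6 of 6 pairs, yet the groups overlapped in all comparisons. The log2 fold changes with PI3Kdi, -0.19 for WT and -0.18 for FOXO1-GFP KO, had intervals that spanned 0 and were not called in either fit. The largest log2 fold change of Pik3r1, -0.34 between genotypes without PI3Kdi (-0.86 to 0.18), was not called either.

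Per length, there was far less Pik3r1 than Pik3cd. The ratio of Pik3r1 to Pik3cd FPKM was 0.0822 ± 0.0128 (SD, n = 3) in WT CTL and 0.0591 ± 0.0142 after PI3Kdi, and 0.0760 ± 0.0105 and 0.0619 ± 0.0116 in FOXO1-GFP KO CTL. The ranges of the ratio overlapped between all 4 groups, and within pairs of the same number it was lower with PI3Kdi in 6 of 6 pairs. The other p85-type subunits, Pik3r2 (0.53 to 0.97 FPKM) and Pik3r3 (0.09 to 0.26 FPKM), also named after their values were seen, were lower still in every library.

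With PI3Kdi in WT, Pik3cd differed by 0.30 on the log2 scale (0.06 to 0.53, adjusted p = 0.677). With the replicate block the adjusted p was 0.0139, but the fold change of 1.23 was under the limit and it was not called. In FOXO1-GFP KO the log2 fold change was 0.12, and between genotypes it was -0.23 without and -0.40 with PI3Kdi (-0.64 to -0.17, adjusted p = 0.115). Pik3ca and Pik3cb were not called in any comparison. Pik3ca differed by 0.03 with PI3Kdi in WT (-0.38 to 0.43) and Pik3cb by -0.18 (-0.62 to 0.26). The PI3Kdi library had less Pik3cb than its vehicle library in 6 of 6 pairs, with overlapping groups. Part of the Pik3ca gene model is shared with another model on the same strand, Gm37123, and reads of the shared part cannot be told apart.

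Inpp5d, the gene of SHIP1, was the most abundant of the phosphatases studied. It lies on chromosome 1 from 87620312 to 87720507 (plus strand). WT replicates 1 to 3 were at 51.26, 36.49 and 37.25 FPKM, and at 45.41, 32.17 and 37.79 FPKM once PI3Kdi was given. FOXO1-GFP KO replicates 1 to 3 were at 39.06, 46.71 and 40.20 FPKM, and at 33.86, 41.91 and 39.22 FPKM once PI3Kdi was given. All 4 groups overlapped. The 4 log2 fold changes lay between -0.13 and 0.02, with intervals reaching at most -0.49 and 0.38, and were not called (unadjusted p of 0.428 to 0.981 in limma).

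Inpp4b lies on chromosome 8 from 81342556 to 82127914 (plus strand). Its level in WT CTL was 19.18, 10.28 and 9.91 FPKM by replicate, and 19.03, 9.98 and 8.87 FPKM in the presence of PI3Kdi. Its level in FOXO1-GFP KO CTL was 13.09, 13.33 and 10.67 FPKM by replicate, and 13.34, 11.74 and 10.98 FPKM in the presence of PI3Kdi. Here the large difference was between libraries of one genotype and not between groups. Both WT libraries of number 1 were nearly double the others, at 1.90 and 2.02 times the mean of the remaining 2 libraries of their groups. Inpp4b was not called (unadjusted p of 0.814 to 0.975 in limma), and with this spread the interval for PI3Kdi in WT ran from -0.71 to 0.57. With the replicate block, which allows for a spread shared by equal numbers, the interval was -0.32 to 0.18, also not called.

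Over the 12 libraries the FPKM of Inpp5d was 2.39 to 4.26 times that of Inpp4b. The ratio averaged 3.33 ± 0.576 (SD, n = 3) in WT CTL and 3.29 ± 0.939 after PI3Kdi, and 3.42 ± 0.399 and 3.23 ± 0.596 in FOXO1-GFP KO CTL, with overlapping ranges.

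Several members followed this split between WT libraries. In WT, replicate 1 was at 1.56 times the mean of replicates 2 and 3 for Pik3cg, 1.52 times for Pik3ca and Pik3r1, 1.41 times for Pik3cb and 1.39 times for Inpp5d. In WT+PI3Kdi these values were 1.73 for Pik3cg, 1.44 for Pik3ca, 1.37 for Pik3r1, 1.34 for Pik3cb and 1.30 for Inpp5d. Pik3r5 (1.21 and 1.05) and Pik3ip1 (0.874 and 0.929) were closer to even. For comparison, the log2 difference between these libraries was within -0.76 to 0.74 for the middle 90% of genes averaging 1 FPKM or more in WT and within -0.67 to 0.73 in WT+PI3Kdi. Inpp4b (0.92 and 1.01) was above those limits in both groups and Pik3cg (0.79) in WT+PI3Kdi. In FOXO1-GFP KO CTL the libraries of number 3 were the lowest of their groups for Pik3r1 (7.95 and 6.69 FPKM), Pik3cg (15.94 and 14.77 FPKM) and Inpp4b (10.67 and 10.98 FPKM).

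As a description over the 12 libraries, which share groups and replicate numbers, Pik3cg correlated with Pik3ca (Pearson r = 0.94) and with Inpp4b (0.88). Pik3r5 correlated with Pik3cd (0.94) and Pik3ip1 (0.74), and hardly with Pik3cg (0.24). The genes most like Pik3r5 among the 10371 genes averaging 1 FPKM or more were Ifi209 (r = 0.99), Emb (0.98) and Rasa3 (0.97). Ifi209 belongs to a family of closely related interferon-inducible genes, whose reads can be hard to assign to a single copy. It averaged 32.3 FPKM in WT CTL and 65.3 FPKM with PI3Kdi, against 18.2 and 25.6 FPKM in FOXO1-GFP KO CTL. Those most like Pik3ip1 were Phldb3 (0.97), Klhl6 (0.96) and Jun (0.94).

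Counted together, 1 of the 9 genes (Pik3r5, higher) was called with PI3Kdi in WT CTL, where 0.0979% of all genes were called, and 2 (Pik3r5 and Pik3ip1) with the replicate block, where 2.57% were. In FOXO1-GFP KO CTL 0 of 9 were called with PI3Kdi without the block (0.0452% of all genes) and 0 with it (2.79%), with 1 and 2 members at an unadjusted p under 0.05 in these limma fits (5.17% and 29.5% of all genes) and 0 called by voom on estimated reads. Between genotypes 1 of 9 (Pik3r5, lower) was called without PI3Kdi (0.331% of all genes) and 0 with the block in limma (0.233%), where 1 had an unadjusted p under 0.05 and voom with the block called 0. With PI3Kdi 1 of 9 (Pik3r5, lower) was called without (1.45%) and with the block (1.18%). For the difference of responses 0 of 9 were called in either fit, against 0% of all genes without and 0.0226% with the block, and 1 of the 9 (Pik3r5) had an unadjusted p under 0.05 in each of these limma fits (1.51% and 10.8% of all genes), while voom called 0.

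Libraries of the compared groups did not overlap for 3 of the 9 genes with PI3Kdi in WT (Pik3r5, Pik3ip1 and Pik3cd, all higher), against 10.2% of all genes in either direction. This held for 1 gene with PI3Kdi in FOXO1-GFP KO (10.1% of all genes). It held for 2 genes, Pik3r5 and Pik3cd, both lower in FOXO1-GFP KO, without PI3Kdi (10.3%) and with it (14.8%). The median log2 fold change of the 9 genes was 0.01, -0.04, -0.15 and -0.27 in these 4 comparisons, in the order given, beside medians of -0.04, -0.02, -0.01 and 0.01 over all genes.

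**Figure D4:**
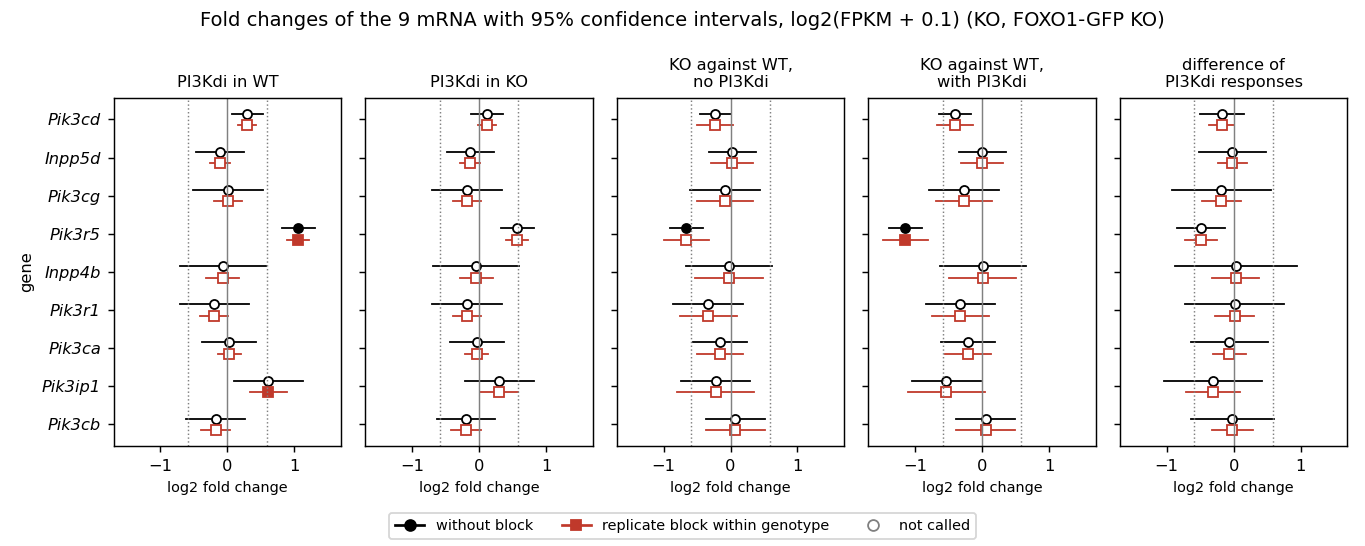
Log2 fold changes of the 9 genes in the 5 comparisons, with 95% confidence intervals, from limma without a block (black circles) and with the replicate block within genotype (red squares). Filled symbols are called and dotted lines mark a fold change of 1.5 either way. Pik3r5 has filled symbols at 1.06, -0.66 and -1.15, Pik3ip1 a filled square at 0.61, and all other intervals belong to values that were not called.

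The wider pathway was described from lists of 79 genes of phosphoinositide metabolism and signalling, the 9 genes included, of which 74 were measured. Without the 9, 65 genes remained. With PI3Kdi in WT CTL limma called 0 of these 65 without the block and 1 with it, against 0.0979% and 2.57% of all genes. At an unadjusted p under 0.05 were 3 of the 65 without the block (5.14% of all genes) and 17 with it (23.7%). In FOXO1-GFP KO CTL limma called 0 in either fit, against 0.0452% and 2.79% of all genes, with 3 (5.17% of all genes) and 23 (29.5%) at an unadjusted p under 0.05. Between genotypes without PI3Kdi limma called 0 in either fit, against 0.331% and 0.233% of all genes, with 4 (6.51% of all genes) and 3 (5.09%) at an unadjusted p under 0.05. With PI3Kdi it called 2 in either fit, Arap3 and Rasa3, both lower in FOXO1-GFP KO, where 1.45% and 1.18% of all genes were called. These are among the 19 measured genes of the list of PIP3 and PtdIns(3,4)P2 binding proteins, and members of the lists of myotubularins (14 measured), 5-phosphatases (10), 4-phosphatases (5) and further phosphoinositide kinases (10) were not among the called genes. The median log2 fold change of the 65 genes was -0.07 with PI3Kdi in WT, -0.11 in FOXO1-GFP KO, and -0.07 without and -0.08 with PI3Kdi between genotypes.

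Both called genes encode proteins that bind PI3K products. Arap3, a GTPase-activating protein that PIP3 recruits, was present in WT CTL at 2.49, 1.69 and 1.96 FPKM, and after PI3Kdi at 3.46, 3.22 and 3.79 FPKM. It was present in FOXO1-GFP KO CTL at 0.65, 0.97 and 0.36 FPKM, and after PI3Kdi at 0.59, 1.05 and 0.44 FPKM. All 6 FOXO1-GFP KO libraries were below all 6 WT libraries, and WT+PI3Kdi was above WT without overlap. Between genotypes with PI3Kdi the log2 fold change of Arap3 was -2.25 (-2.96 to -1.54, adjusted p = 0.00512), called under all 24 alternatives. Without PI3Kdi the log2 fold change of -1.56 was not called in limma without a block (adjusted p = 0.0872) or with the replicate block (0.0661). It was called with voom and that block (adjusted p = 0.0327) and with a block on the number shared by all groups (0.0161). The rise with PI3Kdi in WT, 0.76, was called only with the block (adjusted p = 0.909 without it and 0.00955 with it). In FOXO1-GFP KO the log2 fold change was 0.07.

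Rasa3, a GTPase-activating protein for RAS with a pleckstrin homology domain, was present after PI3Kdi at 35.29, 29.78 and 34.61 FPKM in WT CTL, and at 21.58, 22.84 and 21.08 FPKM in FOXO1-GFP KO CTL. These groups did not overlap. The log2 fold change of -0.60 (-0.83 to -0.37, adjusted p = 0.0129) was only just past the limit of 1.5-fold. It was called under 16 of 24 alternatives, and under 8 of the 12 among them that left out 1 library. It was not called without FOXO1-GFP KO+PI3Kdi replicate 1 (-0.59, adjusted p = 0.0516) or 3 (-0.58, adjusted p = 0.0576), or without WT+PI3Kdi replicate 1 (-0.55, adjusted p = 0.0555) or 3 (-0.57, adjusted p = 0.0659). The call was also lost under some of the other alternatives. With PI3Kdi in WT, Rasa3 differed by 0.55 (adjusted p = 0.0916), under the limit in both fits. B cell markers, Fcgr3 and Cd4 were lower, and Tyrobp was higher, in the FOXO1-GFP KO libraries at the values given above. The part of these markers in the Arap3 and Rasa3 results was not tested.

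**Figure D5:**
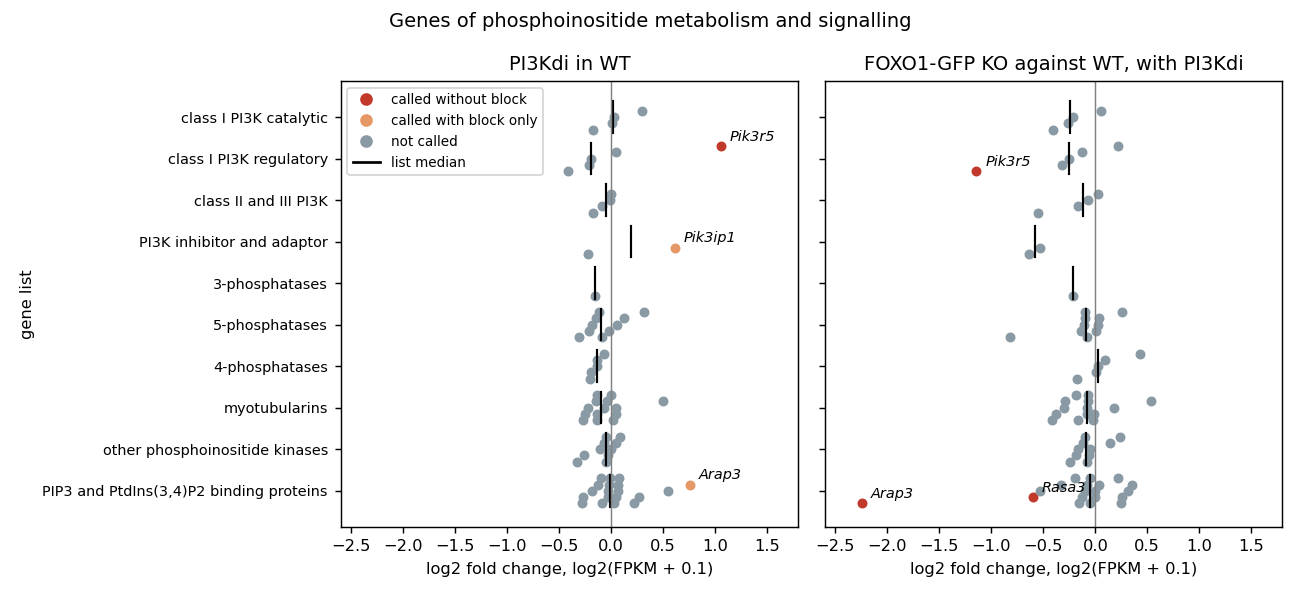
Log2 fold changes (horizontal axis) of the 74 measured genes in 10 lists, with PI3Kdi in WT (left) and between genotypes with PI3Kdi (right). Points are genes, coloured by whether they were called without the block, only with it, or not at all, and black lines are list medians. Most genes lie near 0, and named genes are those called, Pik3r5 at 1.06 and -1.15 and Arap3 at 0.76 and -2.25 among them.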

How the data were processed

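Libraries were made from 300 ng of RNA with the TruSeq Stranded mRNA kit and sequenced on 1 Illumina HiSeq lane as paired 75 bp reads. The authors aligned reads to GRCm38.p6 with STAR 2.7.1a, counted reads per gene on Ensembl annotation, dropped low genes (filterByExpr of edgeR), and used TMM factors and exon lengths to obtain FPKM. The deposited FPKM have 2 decimals and cover 13283 genes in 12 libraries, with 0 further columns of sample values. Genes their filter removed were not analysed here, and scaling to the library total makes all changes relative.

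Reads were estimated from FPKM, exon lengths of GENCODE M21 (GRCm38; 13276 genes matched) and a depth at which values of short genes become whole reads. In held-out genes 97.5 to 99.5% of values came out within 0.25 of a whole read, against 50% by chance. Libraries held 12.8 to 47.9 M reads, a 3.73-fold range. Counting errors cover counting only. Squared differences between libraries of the same group were 13.2 to 136 times those that counting noise gives.

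limma 3.58.1 (R 4.3.3) fitted 4 group means to log2(FPKM + 0.1) of all genes, with empirical Bayes and a mean-variance trend. The design replaced the study's voom, which needs counts. The 5 comparisons were PI3Kdi in each genotype, genotype with and without PI3Kdi, and how far the responses to PI3Kdi differed. A call needed an adjusted p (Benjamini-Hochberg, all genes) below 0.05 and a change over 1.5-fold (log2 0.585). The script was tested on simulated data. Confidence intervals are 95%.

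Labels number the libraries of each group 1 to 3 as biological replicates but do not say that equal numbers share a mouse. Deviations from group means correlated at 0.594 to 0.838 between equal numbers within a genotype, in all 6 pairs, and at -0.409 to 0.730 across genotypes. The numbers were therefore taken to pair libraries within a genotype, and the replicate block was a random effect of genotype by number (correlation 0.757). Alternatives were other pseudocounts, a filter at 1 FPKM, voom on estimated reads, other blocks and leaving out each library.

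The 9 genes, the gene lists and the tests were chosen with earlier results of these data known. Named genes were these 9, Foxo1, list genes called with or without the block, and for members so called the 3 genes best correlated with them. Pik3r2, Pik3r3, Pik3r6, Cd4, Fcgr3, Igkc and the other marker genes named singly were added after their values were seen. Promoter windows are from RefSeq (GRCm38.p6), which held all 9 genes. Protein sequences were not used here. One further gene of the rule is not reported here.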

Additional observations from a re-analysis of the deposited data

How the results depend on the processing

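Over 24 alternatives, 19 planned and 5 added after seeing the data, 42 of the 45 fold changes of the 9 genes kept their side of the call in every one, and 0 called values reversed. The exceptions were Pik3r5 with PI3Kdi in WT and between genotypes without PI3Kdi, and Pik3ip1 with PI3Kdi in WT, given with their values above. With PI3Kdi in WT, the count of the 9 genes called was 1, and 2 with the replicate block within genotype, with voom on estimated reads and that block, and with quantile normalization and that block (added); leaving out 1 library gave 0 to 1. For the pathway lists this count was 1, and 3 under the same 3 fits and without both WT libraries of number 1 with the block (added), and 0 to 1 when leaving out 1 library. Between genotypes without PI3Kdi, the count of the 9 genes was 1, and 0 with the block, with voom and the block, with quantile normalization and the block, and without both WT libraries of number 1 with or without the block; leaving out 1 library gave 0 to 1. The pathway count there was 1, and 0 under these fits except voom with the block (1), 2 with a block on the number shared by all groups, and 0 to 1 when leaving out 1 library. With PI3Kdi the pathway count between genotypes was 3, and 5 with the shared block. The cause of these changes was not tested. The replicate block within genotype changed no other call of the 9 genes. Over all genes the block moved the calls for PI3Kdi from 13 to 342 in WT CTL and from 6 to 370 in FOXO1-GFP KO CTL, and for genotype without PI3Kdi from 44 to 31. As shares of estimated reads, not per length, Pik3cd made up 80.0, 82.9, 78.5 and 81.5% of the catalytic genes in WT, WT+PI3Kdi, FOXO1-GFP KO and FOXO1-GFP KO+PI3Kdi. Other scalings of the libraries (added) moved the median of all genes by at most 0.03. Among the 9 genes, depth limits Pik3cb and Pik3ip1 most, with counting errors of up to 10.8 and 9.41%. Of other genes described, Pik3r3 (37.8%), Pik3r6 (18.0%), Arap3 (16.4%) and Pik3r2 (15.8%) had larger ones. Pik3cb gave no value under a filter at 1 FPKM.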
